A study of Homo sapiens with 8 samples.

Results

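Transcript levels of 10 genes of the YAP/TEAD pathway were followed in U251, a human glioblastoma cell line, after inhibition of the arginine methyltransferase PRMT5. The genes were chosen by name from the 61906 genes of the deposited table, with the results of the comparison between LLY-283 and vehicle already known, so that their differences between the groups are given as a description and not as independent evidence. They were the coactivators YAP1 and WWTR1, the DNA-binding factors TEAD1 and TEAD4, the regulators LATS2, AJUBA and AMOTL2, and the target genes CCN2, CCN1 and ANKRD1. One group of 4 libraries came from cells exposed to vehicle (DMSO) and the other group of 4 from cells exposed to LLY-283, a small-molecule PRMT5 inhibitor, at 100 nM. Exposure lasted 24 h in both groups, and U251 was labelled as wild type throughout. The cells were of a single line, labelled as biological replicates 1 to 4 in each group, and the labels do not say whether the cultures were set up on separate days, so that p-values measure only the spread between these libraries, which may be partly technical.

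In the Hippo pathway, the kinases LATS1 and LATS2 phosphorylate YAP and TAZ (the product of WWTR1) and keep them out of the nucleus. Unphosphorylated YAP and TAZ enter the nucleus, bind TEAD proteins on DNA and raise transcription of genes such as CCN2, CCN1 and ANKRD1, some of which encode secreted proteins and some of which encode inhibitors that act back on the pathway. The activity of YAP and TAZ is set largely by phosphorylation and location, which RNAseq does not measure.

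The target gene CCN2 was the most different of the 10 genes, with a mean of 535 ± 11.3 TPM after LLY-283 against 392 ± 6.74 TPM with vehicle (SD, n = 4 each). CCN1 and AMOTL2 were also higher in all 4 LLY-283 libraries than in any vehicle library, by smaller amounts. The values of the coactivators, of both TEAD factors and of LATS2, AJUBA and ANKRD1 overlapped between the groups. TPM is a share of the library corrected for transcript length. Read numbers cannot be recovered from it, so the depth behind these values is unknown and their counting error cannot be estimated.

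All 10 genes averaged 1 TPM or more across the libraries and were among the 14478 genes for which log2(TPM + 0.1) was fitted in limma, with p-values adjusted over all of those genes by the Benjamini-Hochberg method. A gene was called at an adjusted p-value under 0.05. Of the 10 genes, 3 were called higher and 0 lower (limma), where 8.61% of all genes tested were called higher and 17.6% lower. Decreases were 67.1% of all calls, and 49.3% under quantile normalization. None of the 10 changed more than 1.5-fold, where 0.394% of all genes tested were called higher and 3.48% lower past that fold. The groups did not overlap for 3 of the 10, all higher after LLY-283, where 9.63% of all genes tested lay wholly higher and 19.6% wholly lower. Because the genes were chosen with this contrast in view, nothing is read from these shares.

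Markers of the labelled line were present at unlike levels. Vimentin (VIM) lay between 4018.59 and 4390.24 TPM and GFAP, the astrocyte intermediate filament, between 662.82 and 839.89 TPM over the 8 libraries. S100B, another glial marker, was low, between 2.34 and 4.94 TPM. Markers of blood, endothelial, epithelial and liver cells were near 0, with CD3E listed at 0 throughout and the highest values over the 8 libraries at 0.04 TPM for PTPRC, 0.01 TPM for PECAM1, 0.09 TPM for CDH5, 0.1 TPM for EPCAM, 0.28 TPM for CDH1 and 0.2 TPM for ALB. LLY-283 replicate 4 stood apart in its mitochondrial transcripts, which summed to 71943 TPM against 101536 to 109954 TPM in the other 7 libraries. Without it, 3 of the 10 genes and 1502 of all 14516 genes then tested were called higher, with log2 fold changes of 0.43 for CCN2, 0.19 for CCN1 and 0.12 for AMOTL2. In a culture measured as a whole, a change in every cell and a change in some cells cannot be told apart.

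**Figure D1:**
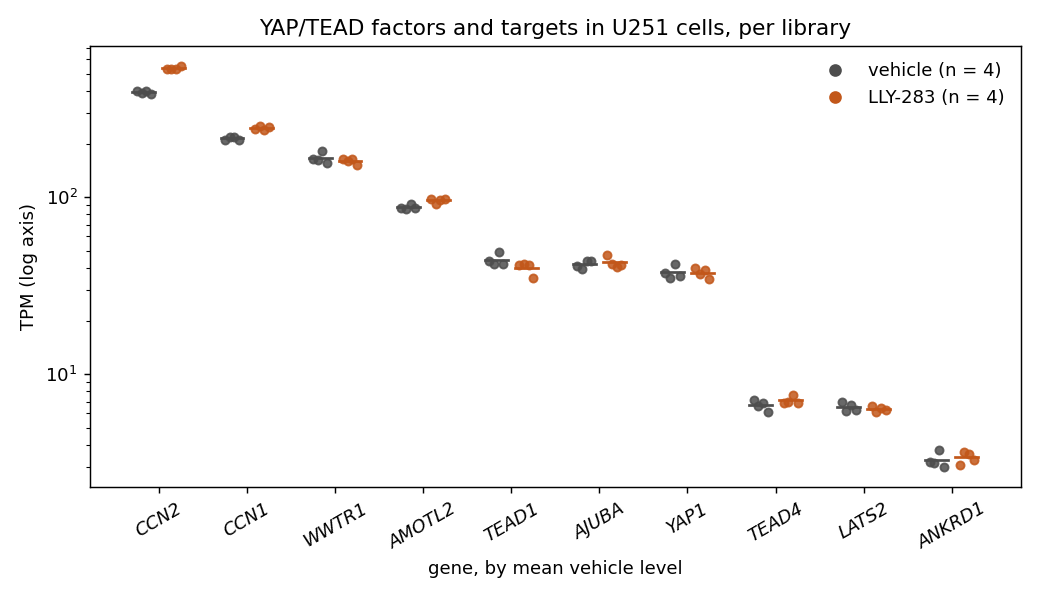
TPM (log axis) of the 10 genes in each of the 8 libraries, ordered by mean vehicle level, with points for libraries and lines for group means. CCN2, CCN1 and AMOTL2 are the genes whose vehicle and LLY-283 points do not overlap.

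With vehicle, the 10 genes spanned more than 2 orders of magnitude per transcript length, from 392 TPM for CCN2 to 3.27 TPM for ANKRD1. CCN2 was followed by CCN1 (215 TPM), WWTR1 (167 TPM) and AMOTL2 (87.8 TPM), and each of these 4 lay apart from its neighbours in the order. TEAD1 (44.2 TPM) overlapped AJUBA (41.9 TPM), and AJUBA overlapped YAP1 (37.6 TPM). TEAD4 (6.67 TPM) and LATS2 (6.55 TPM) could not be separated by their spread. The spread between vehicle libraries was smallest for CCN2, with a coefficient of variation of 1.72%, and largest for ANKRD1, with 9.38%.

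The coactivators did not separate by treatment. YAP1 (ENSG00000137693.14, chr11:102110447-102233424 on GRCh38, plus strand) had 37.54, 34.86, 42.01 and 35.91 TPM with vehicle and 39.62, 36.66, 38.98 and 34.4 TPM with LLY-283. The highest value was from a vehicle library and the lowest from an LLY-283 library, and the groups overlapped. The log2 fold change of YAP1 was -0.0049 (standard error 0.066, 95% confidence interval -0.15 to 0.14). Its sign changed with the scaling of the libraries and with single libraries left out. It lay between -0.040 (without vehicle replicate 2) and 0.050 (without vehicle replicate 3) in the fits with 1 library left out. WWTR1 (ENSG00000018408.15, chr3:149517235-149736714, minus strand) had 164.18, 163.19, 182.04 and 156.92 TPM with vehicle and 164.6, 160.37, 165.32 and 151.81 TPM with LLY-283. Its log2 fold change was -0.05 (standard error 0.048, 95% confidence interval -0.16 to 0.06), and it was -0.0086 without vehicle replicate 3, -0.025 without LLY-283 replicate 4 and -0.080 without vehicle replicate 4. Its antisense gene WWTR1-AS1 was at 0.658 TPM on average, and the counting is not stated to use strand. WWTR1 thus made up most of the coactivator transcripts, with 81.6% ± 0.533 of the summed TPM of YAP1 and WWTR1 with vehicle and 81.1% ± 0.428 with LLY-283 (SD, n = 4 each).

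TEAD proteins carry the DNA-binding domain that YAP and TAZ lack. TEAD1 (ENSG00000187079.20, chr11:12674421-12944737, plus strand) had 43.37, 41.83, 49.35 and 42.12 TPM with vehicle and 41.35, 42.06, 41.45 and 35.03 TPM with LLY-283. Only 1 LLY-283 library, replicate 4, lay clearly under the rest, and the groups overlapped. The log2 fold change of TEAD1 was -0.14 (standard error 0.072, 95% confidence interval -0.30 to 0.02), the lowest of the 10. It was -0.08 without that library and -0.09 without vehicle replicate 3, which had the highest vehicle value. TEAD4 (ENSG00000197905.10, chr12:2959330-3040676, plus strand) had 7.14, 6.58, 6.89 and 6.08 TPM with vehicle and 6.86, 6.99, 7.68 and 6.91 TPM with LLY-283. Its log2 fold change was 0.09 (standard error 0.071, 95% confidence interval -0.07 to 0.25), 0.05 without vehicle replicate 4 and 0.05 without LLY-283 replicate 3. It passed the threshold under quantile normalization alone among the alternatives (log2 fold change 0.22, adjusted p = 0.0461, limma).

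Of TEAD2, TEAD3 and the VGLL cofactors, 6 genes that were not among the 10, 4 were tested, 0 were higher and 1 was lower (25%, against 17.6% of all genes tested). TEAD2 had 32.1, 33.26, 32.24 and 32.98 TPM with vehicle and 26.23, 30.95, 27.75 and 26.19 TPM with LLY-283. All 4 LLY-283 values were under the vehicle values, and TEAD2 fell by 0.24 on the log2 scale (adjusted p = 0.0122, limma), with a standard error of 0.054. TEAD3, at 4.96 ± 0.202 TPM with vehicle and 4.87 ± 0.538 TPM with LLY-283 (SD, n = 4 each), was not called. In the summed TPM of TEAD1 to TEAD4, TEAD1 held 49.9% ± 2.00 with vehicle and 50.1% ± 1.60 with LLY-283, and TEAD2 held 37.0% ± 1.82 and 34.8% ± 1.76 (SD, n = 4 each). The share of TEAD4 was 7.05% to 8.18% in the vehicle libraries and 8.28% to 9.46% in the LLY-283 libraries, without overlap. The sum itself averaged 88.4 ± 3.4 TPM with vehicle and 79.7 ± 4.8 TPM with LLY-283 (SD, n = 4 each). The means of both TEAD1 and TEAD2 in it were lower with LLY-283. Of the VGLL cofactors, which compete with YAP for TEAD, VGLL4 was the most abundant, at 62.7 ± 1.47 TPM with vehicle and 64.3 ± 1.45 TPM with LLY-283 (SD, n = 4 each), and it was not called. VGLL3, near the filter with 0.87 to 2.02 TPM over the 8 libraries, was not called either, and VGLL1 and VGLL2 were under the filter.

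**Figure D2:**
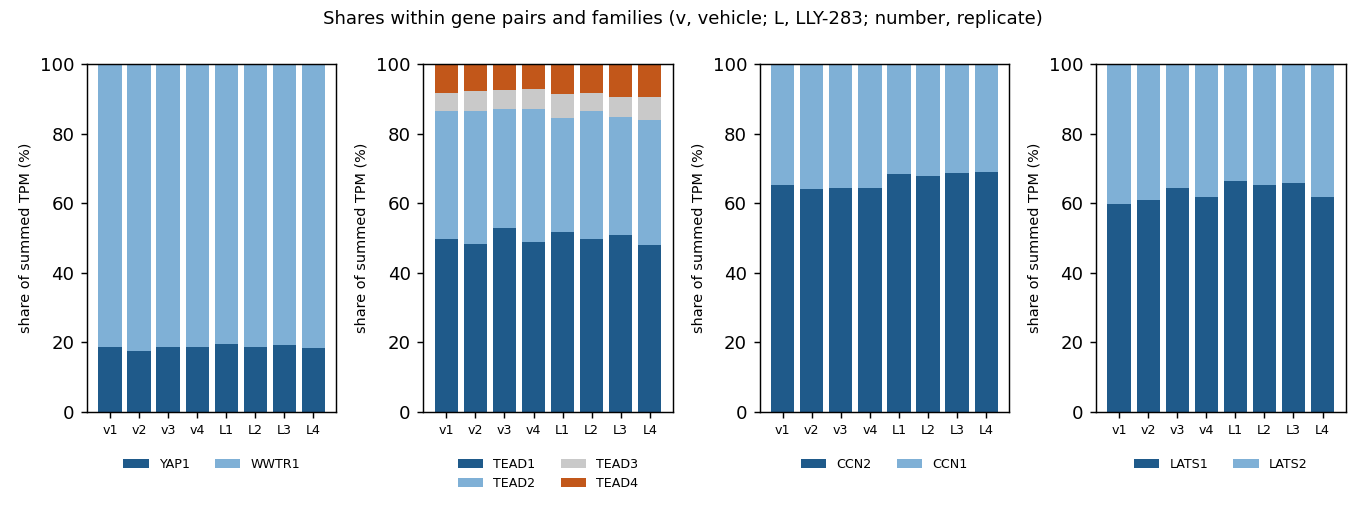
Share of the summed TPM (%) held by each gene of 2 pairs of factors or targets, of the TEAD family and of the LATS pair, in each of the 8 libraries. WWTR1 holds about 81% of the coactivator sum in both groups, and CCN2 holds more of the CCN2 and CCN1 sum in all LLY-283 libraries than in any vehicle library.

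Among the regulators, LATS2 (ENSG00000150457.9, chr13:20973036-21061586, minus strand), the kinase that inactivates YAP and TAZ and is itself a target gene of theirs, had 6.97, 6.23, 6.73 and 6.27 TPM with vehicle and 6.64, 6.14, 6.44 and 6.31 TPM with LLY-283. All 4 LLY-283 values lay between 6.14 and 6.64 TPM, within or just under the vehicle range. Its log2 fold change was -0.04 (standard error 0.064, 95% confidence interval -0.18 to 0.11) and turned positive under quantile normalization (0.09) and median-of-ratios scaling (0.008). With 1 library left out it lay between -0.059 (without vehicle replicate 2) and -0.0058 (without vehicle replicate 1). AJUBA (ENSG00000129474.16, chr14:22971177-22982551, minus strand), a LIM-domain protein that binds and restrains LATS kinases, had 40.93, 39.49, 43.7 and 43.57 TPM with vehicle and 47.11, 42.21, 40.53 and 41.66 TPM with LLY-283. One LLY-283 library, replicate 1, was above the vehicle range, and without it the log2 fold change went from 0.03 (standard error 0.054) to -0.01. It was 0.003 without vehicle replicate 2 and 0.06 without LLY-283 replicate 3. AJUBA shares its strand with an overlapping protein-coding gene, ENSG00000259132, at 3.15 TPM on average, between which RSEM may divide reads.

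AMOTL2 (ENSG00000114019.15, chr3:134355347-134375479, minus strand), an angiomotin that holds YAP in the cytoplasm and at junctions and is also induced by it, was the regulator that separated by treatment. It had 86.56, 86.01, 92.08 and 86.51 TPM with vehicle and 98.3, 92.15, 96.49 and 97.21 TPM with LLY-283. The gap between the groups was narrow, since the highest vehicle library and the lowest LLY-283 library differed by less than the spread within either group. AMOTL2 was at 109% of its vehicle mean, which is 0.13 ± 0.034 as log2 fold change and standard error, with an adjusted p of 0.0205 in limma. The adjusted p-value was above 0.05 when any of vehicle replicates 1, 2 and 4 or LLY-283 replicates 1 and 3 was left out, up to 0.0591 without vehicle replicate 4 (log2 fold change 0.12).

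The target genes were followed with the DNA around their starts, since TEAD proteins bind the motif GGAATG. RefSeq promoter windows of 300 bases on GRCh38.p14, from 250 before to 50 after a start, were found for 7 of the 10 genes, with no entry for CCN1, TEAD1 and TEAD4. These 7 genes had 10 windows between them. CCN2 held 3 copies of GGAATG and ANKRD1 held 2, counting both strands. YAP1 and LATS2 held 1 copy each in their only window, that of LATS2 at position 10, after the start. AMOTL2 and AJUBA held 1 each in one of their windows, and WWTR1 held 0. Of all 35116 windows, 4928 held at least 1 copy, 482 (1.37%) at least 2 and 45 (0.128%) at least 3. Of the 15174 windows of genes tested, 11.4% held at least 1 copy, 0.923% at least 2 and 0.0659% at least 3. The 250 bases before the starts of CCN2 (chr6:131951373-131951622, minus strand) and ANKRD1 (chr10:90921088-90921337, minus strand) are shown because they hold the most copies among the 10 genes, while CCN2 was the highest and ANKRD1 the lowest of them in level, and only CCN2 of the pair was called. Both are written 5′ to 3′ on the strand of the gene, with GGAATG in capitals and, in ANKRD1, also a match to TGANTCA, the AP-1 motif searched.
CCN2: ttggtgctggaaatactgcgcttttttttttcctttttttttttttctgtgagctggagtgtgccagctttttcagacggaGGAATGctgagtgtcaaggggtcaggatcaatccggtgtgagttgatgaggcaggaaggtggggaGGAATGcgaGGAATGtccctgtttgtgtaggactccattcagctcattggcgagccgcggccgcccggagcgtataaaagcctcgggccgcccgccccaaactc
ANKRD1: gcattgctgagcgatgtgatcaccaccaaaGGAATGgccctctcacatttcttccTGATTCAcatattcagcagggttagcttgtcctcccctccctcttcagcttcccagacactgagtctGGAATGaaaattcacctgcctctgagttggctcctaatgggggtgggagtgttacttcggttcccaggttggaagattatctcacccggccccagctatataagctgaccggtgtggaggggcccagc

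In CCN2 the copies of GGAATG began at positions -169, -104 and -95 from the start, the last pair 3 bases apart, and all of them lay on the strand of the gene. In ANKRD1 they began at -220 and -128, with the AP-1 match at -195. The AP-1 motif, which reads the same on both strands, was in 7.71% of all windows, and no CCN2 window held it. A CArG box, the site of serum response factor, was in 1.29% of all windows and in none of the windows of the 10 genes. The single copies in AMOTL2 (chr3:134374511-134374516, at -69 from a start inside the gene, on the strand opposite to it), in YAP1 (chr11:102110285-102110290, at -162) and in AJUBA (chr14:22976896-22976901, at -59 from a start inside the gene) are shown with 8 bases on each side, written so that the motif reads GGAATG in capitals, to compare with the copies in CCN2.
AMOTL2: ctatgccaGGAATGtgagagtt
YAP1: agtgtgcaGGAATGtagcaact
AJUBA: agttggctGGAATGaagccaaa

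These matches describe the letters in the windows and not bound sites.

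CCN2 (ENSG00000118523.6, chr6:131948176-131951372, minus strand), formerly CTGF, encodes a secreted matricellular protein and is among the most used readouts of YAP and TAZ. It had 396.74, 390.21, 398.23 and 383.51 TPM with vehicle and 526.81, 532.21, 528.74 and 551.48 TPM with LLY-283. Every LLY-283 value exceeded every vehicle value by more than 100 TPM, while each group varied by about 2%. CCN2 was at 136% of its vehicle mean, and its log2 fold change was 0.45 (standard error 0.025, 95% confidence interval 0.39 to 0.50), under the 1.5-fold threshold. The adjusted p in limma was 1.79e-05. By p-value CCN2 ranked 12 among the 14478 genes tested. When single libraries were dropped, the log2 fold change stayed between 0.43 and 0.45. The noncoding gene LINC01013, which overlaps CCN2 on the opposite strand, averaged 0.056 TPM.

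CCN1 (ENSG00000142871.18, chr1:85580761-85584589, plus strand), formerly CYR61, encodes a related secreted protein. It had 211.09, 219.07, 218.75 and 211 TPM with vehicle and 242.55, 251.22, 240.3 and 248.66 TPM with LLY-283. The groups were separate, with the lowest LLY-283 library well above the highest vehicle library. CCN1 was at 114% of its vehicle mean, and its log2 fold change was 0.19 (standard error 0.027, 95% confidence interval 0.13 to 0.25), an interval that lies under that of CCN2. The adjusted p in limma was 0.00102. In the sum of both, CCN2 held 64.04% to 65.3% in the vehicle libraries and 67.9% to 68.9% in the LLY-283 libraries. The remaining genes of the CCN family (CCN3, CCN4, CCN5 and CCN6) were all under 0.2 TPM in every library and were not tested.

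ANKRD1 (ENSG00000148677.7, chr10:90912096-90921087, minus strand), a nuclear and sarcomeric ankyrin repeat protein used as a YAP target in many cell types, was the least abundant of the 10. It had 3.21, 3.16, 3.71 and 3 TPM with vehicle and 3.07, 3.65, 3.55 and 3.29 TPM with LLY-283. The groups overlapped over nearly their whole range. The log2 fold change of ANKRD1 was 0.05 (standard error 0.103, 95% confidence interval -0.18 to 0.28). With 1 library left out it lay between 0.013 (without vehicle replicate 4) and 0.11 (without vehicle replicate 3). Under quantile normalization it was 0.23 (standard error 0.098, adjusted p = 0.111, limma).

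**Figure D3:**
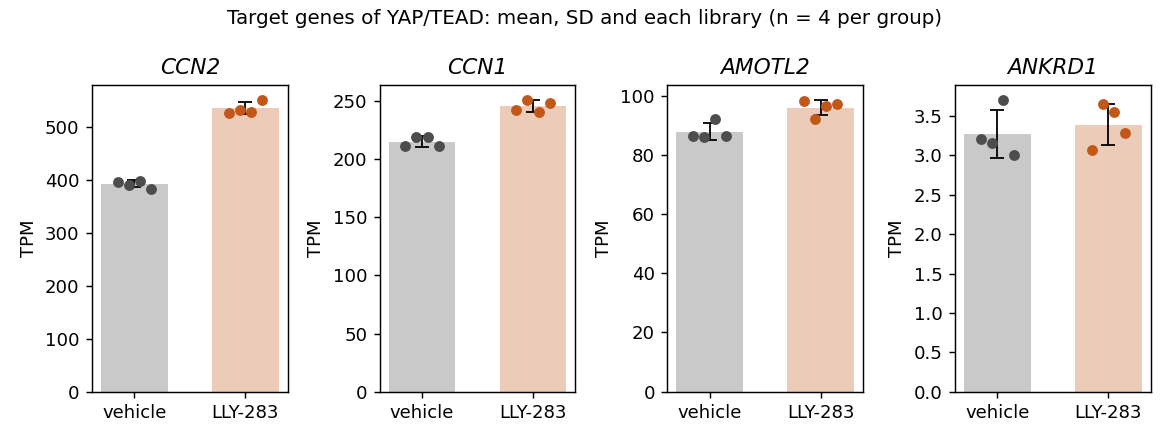
TPM of CCN2, CCN1, AMOTL2 and ANKRD1 in each library (points), with group means (bars from 0) and SD (error bars, n = 4). CCN2 differs by the most, AMOTL2 by a narrow gap, and the groups of ANKRD1 overlap.

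To place these genes in the wider pathway, lists were written from general knowledge of the pathway, with earlier results of these data known. Of 17 further YAP/TAZ target genes, all of them tested, 5 were higher and 2 lower at an adjusted p-value under 0.05 (29.4% and 11.8%, against 8.61% and 17.6% of all genes tested), and the other 10 were not called. Their median log2 fold change was 0.11, against -0.05 over all genes tested, and 13 of the 17 were positive (76.5%, against 39.8% of all genes tested). The counts moved with the processing, to 3 higher without any of vehicle replicates 1 and 2 and LLY-283 replicates 2 and 3, and to 9 under quantile normalization and 8 under median-of-ratios scaling, where 1871 and 1927 of the 14478 genes tested were higher, against 1247 in the fit as described. CRIM1, a transmembrane regulator of growth factors, averaged 81.8 ± 4.04 TPM with vehicle and 102 ± 4.89 TPM with LLY-283 (SD, n = 4 for either group), and rose by 0.31 on the log2 scale (adjusted p = 0.00130, limma). F3, the initiator of blood coagulation known as tissue factor, rose by 0.22 on the log2 scale, with 74.7 ± 1.78 TPM in vehicle and 87.3 ± 3.02 TPM under LLY-283 (adjusted p = 0.00161, limma). For both genes the 4 LLY-283 values lay above all vehicle values.

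CCDC80, an extracellular matrix protein, had the highest log2 fold change of the list, 0.35, with means of 55.0 ± 4.61 TPM in vehicle and 70.1 ± 5.52 TPM in LLY-283 libraries (adjusted p = 0.00671, limma). AXL, a receptor tyrosine kinase, rose by 0.16 on the log2 scale, with 30.8 ± 1.44 TPM in vehicle and 34.5 ± 1.52 TPM in LLY-283 libraries (adjusted p = 0.0305), a call that was lost without any of vehicle replicates 1 and 2 and LLY-283 replicates 2, 3 and 4, and in the fit without a filter on low values. ARHGEF17, a guanine nucleotide exchange factor named here after its value was seen, had a log2 fold change of 0.29 (adjusted p = 0.0464), with overlapping groups, since LLY-283 replicate 4 had 19.92 TPM against 25.74 to 27.38 TPM in the other LLY-283 libraries, and the call was lost without any library but that one. GADD45A, a stress-response gene, fell by 0.20 on the log2 scale, from 31.9 ± 1.58 to 27.7 ± 0.826 TPM (adjusted p = 0.00957, limma), and DOCK5, an exchange factor for Rac, fell by 0.20 (adjusted p = 0.0446), a call that 10 of 15 alternatives lost.

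Of 26 kinases, adaptors and upstream regulators of the Hippo pathway, 24 were tested, 2 were higher (8.33%, against 8.61% of all genes tested) and 0 lower (against 17.6%) at an adjusted p-value under 0.05 (limma). Under quantile normalization and under median-of-ratios scaling 5 were higher, where 1871 and 1927 of the 14478 genes tested were higher, against 1247 without these scalings. Their median log2 fold change was 0.003, with 12 positive and 12 negative, where all genes tested had a median of -0.05 and 39.8% were positive. Both called genes encode WW and C2 domain scaffolds that activate LATS kinases, while the third scaffold of this kind, WWC3, had a log2 fold change of -0.05 (adjusted p = 0.485, limma) with overlapping groups. WWC2 had 34.35, 34.54, 35.91 and 31.74 TPM with vehicle and 47.09, 46.05, 48.66 and 36.75 TPM with LLY-283. Replicate 4 of LLY-283 lay nearer to the vehicle libraries than the other 3 did. For WWC2 the log2 fold change was 0.38 ± 0.083 (standard error) at an adjusted p of 0.00991, and 0.47 without that library. WWC1, known as KIBRA, rose by 0.22 on the log2 scale, with 28.5 ± 0.470 TPM in vehicle and 33.1 ± 1.03 TPM in LLY-283 libraries (adjusted p = 0.00235, limma). The kinases themselves were not called, with log2 fold changes of 0.17 for STK3, -0.18 for STK4 and 0.15 for LATS1 (adjusted p of 0.0753, 0.0691 and 0.256, limma). All LLY-283 values of STK4 (12.82 to 15.36 TPM) lay under its vehicle values (15.47 to 17.12 TPM). Of all genes tested, 19.6% lay wholly lower. The groups overlapped for STK3 and LATS1. LATS1 made up 61.7% ± 1.98 of the LATS1 and LATS2 sum with vehicle and 64.8% ± 2.10 with LLY-283 (SD, n = 4 each). The membrane regulator NF2 had a log2 fold change of 0.10 (adjusted p = 0.0779, limma). Its LLY-283 values (154.84 to 169.06 TPM) lay above its vehicle values (144.06 to 154.7 TPM) by a narrow gap, where 9.63% of all genes tested lay wholly higher. WTIP and DCHS1 were under the filter.

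AP-1 factors bind many of the same enhancers as TEAD. Of 9 AP-1 subunit genes, 8 were tested, 1 was higher and 1 lower at an adjusted p-value under 0.05 (12.5% each, against 8.61% and 17.6% of all genes tested). JUND had 75.07, 73.33, 70.77 and 72.42 TPM with vehicle and 55.46, 60.09, 55.67 and 64.79 TPM with LLY-283. JUND fell by 0.31 on the log2 scale (adjusted p = 0.00241, limma), with no overlap. FOSL1 rose by 0.14 on the log2 scale, with 88.7 ± 2.64 TPM in vehicle and 97.7 ± 4.95 TPM in LLY-283 libraries (adjusted p = 0.0334), with groups that overlapped and a call lost without any of vehicle replicates 1, 3 and 4 and LLY-283 replicates 2 and 3. Without LLY-283 replicate 4, 2 subunit genes were lower. JUN, the most abundant subunit gene, was at 160.0 ± 3.18 TPM with vehicle and 159.8 ± 6.73 TPM with LLY-283 (SD, n = 4 each) and was not called.

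**Figure D4:**
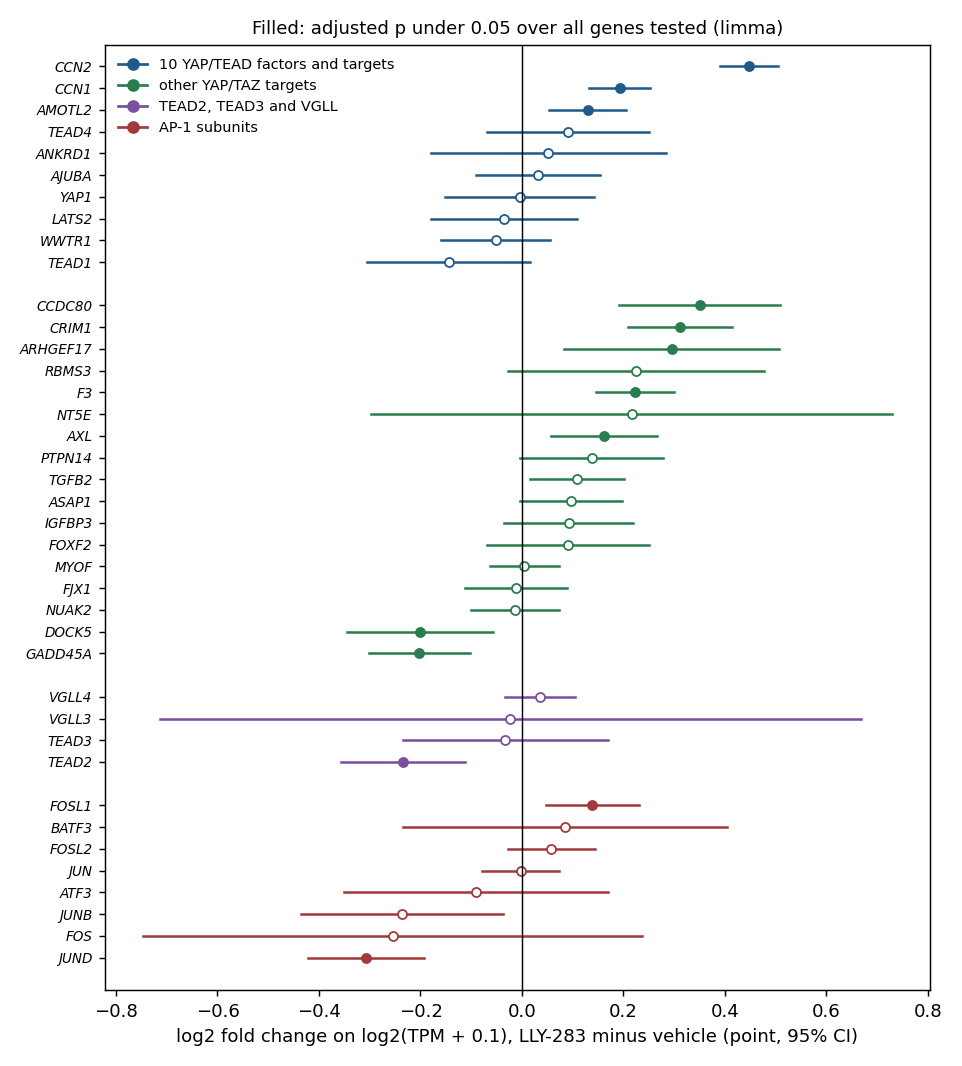
Log2 fold change of log2(TPM + 0.1), LLY-283 minus vehicle, with its 95% confidence interval from limma, for the 10 genes and the tested genes of 3 further lists. Filled points passed an adjusted p-value of 0.05 over all genes tested, and CCN2 has the highest value shown, at 0.45.

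The genes whose profile over the 8 libraries was most like that of CCN2 were sought outside the 10, by the root mean square difference of log2(TPM + 0.1) after each gene was centred on its own mean. The 5 nearest were UTP14A (0.034), PRR3 (0.036), PDGFD (0.037), ZNF286B (0.037) and PRPF4 (0.039), against 0.13 for CCN1 and 0.16 for AMOTL2, the nearest of the 10, and 0.32 for TEAD1, the farthest. UTP14A belongs to the machinery of small-subunit ribosome assembly, PRPF4 to the U4/U6 small nuclear ribonucleoprotein, and PDGFD is a secreted growth factor. PDGFD, for example, had 16.06, 15.96, 16.99 and 15.66 TPM with vehicle and 20.81 to 21.82 TPM with LLY-283. Most of this likeness is the step between the groups, which was itself known when CCN2 was chosen.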

How the data were processed

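Poly(A) RNA of U251 cells was sequenced in 8 libraries, 4 per group, and the groups and replicate numbers were taken from the sample titles. The values the authors deposited are gene-level TPM, transcripts per 1000000, with 2 decimals. Per the submitters' processing notes, reads were trimmed with Cutadapt, aligned to hg38 with STAR and quantified with RSEM (the notes and the methods name different versions of the last pair). Gene TPM sums over isoforms and depends on their lengths, so a shift in isoform use can move it, and it keeps no depth.

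From these, log2(TPM + 0.1) was fitted with limma 3.58.1 in R 4.3.3 (lmFit, eBayes with trend) for 14478 genes, without a replicate block, with Benjamini-Hochberg adjustment. Intervals are 95%. The fit was tested on simulated data. Gene positions were read from the GENCODE 44 annotation (GRCh38) by gene ID, found for 14457 genes, and promoters came from RefSeq.

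The members and lists were chosen with earlier results of these data known. Named in the text are the 10 genes, up to 4 called genes per list and direction, and the 5 genes nearest to CCN2. ARHGEF17 and the uncalled genes of the lists given with values were named outside this rule, after their values were seen. The alternatives were pseudocounts of 0.5 and 1, no filter and a filter at 5 TPM, quantile normalization, median-of-ratios scaling, the replicate block and each library left out. No count test was run on TPM, and splicing was not analysed here. 1 marker gene is not reported here.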

Additional observations from a re-analysis of the deposited data

Results flagged for a closer look

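Among the 27 genes checked (the 10 genes, and the called genes of the lists and markers), 3 of 54 groups of 4 libraries held a value far from the others, where chance gives about 1 in 20 groups. TEAD1 had 35.03 TPM in LLY-283 replicate 4, against 41.35 to 42.06 TPM in the other LLY-283 libraries. TEAD4 had 7.68 TPM in LLY-283 replicate 3, against 6.86 to 6.99 TPM in the others. AMOTL2 had 92.08 TPM in vehicle replicate 3, against 86.01 to 86.56 TPM in the others.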

How the results depend on the processing

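Over 15 alternatives, the 10 genes gave 149 log2 fold changes, of which 135 kept their sign and their side of the threshold. CCN2 and CCN1 kept both in all of them (0.43 to 0.49 and 0.18 to 0.24; adjusted p of at most 0.00144 and 0.00648). ANKRD1 was not called in any of the 14 alternatives that could test it (0.013 to 0.235), and the filter at 5 TPM removed it. AMOTL2 no longer passed with any of 5 libraries left out (0.12 to 0.15 over all 8 such fits). TEAD4 passed under quantile normalization (0.216). Signs changed for YAP1 under quantile normalization (0.031) and median-of-ratios scaling (0.040) and with a library left out (-0.040 to 0.050), for LATS2 under the same scalings (0.090 and 0.0084), and for AJUBA without LLY-283 replicate 1 (-0.015 to 0.058 with a library left out).

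Over all genes tested, calls without a fold threshold were 1247 higher and 2541 lower (67.1% lower). Quantile normalization and median-of-ratios scaling gave 1871 and 1927 higher, and 49.3% and 49.2% of calls were then lower. Past 1.5-fold, 57 were higher and 504 lower, against 25 and 202 with the filter at 5 TPM, 126 and 260 under quantile normalization, and 313 lower with a pseudocount of 1. Among the further targets, higher and lower calls were 3 and 1 without a filter, 9 and 1 under quantile normalization, 8 and 1 under median-of-ratios scaling, and 3 to 5 and 1 to 2 with a library left out. Higher calls among Hippo regulators went from 2 to 5 under both scalings. Among AP-1 subunits, higher calls went to 0 without a filter and were 0 to 1, and lower calls 1 to 2, with a library left out. The causes were not tested.

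With the replicate number as a block, 1095 genes were higher and 2201 lower, and of the calls named above for the pathway genes only that of DOCK5 was lost, so that 1 further target was lower. The 4 same-numbered pairs had correlations of their deviations between -0.085 and 0.032, within the range of the differently numbered pairs (-0.213 to 0.201). With so few pairs, and deviations centred within each group of 4, these correlations cannot settle whether the numbers pair the samples. TPM holds no depth, which limits what can be said of genes near 1 TPM.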

Other observations

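The 10 genes were not spread evenly over the vehicle libraries. Vehicle replicate 3 held the highest vehicle value for 7 of the 10, and for 34.9% of all genes tested. The exceptions were CCN1, TEAD4 and LATS2. In the LLY-283 group no library held the highest value for more than 4 of the 10.

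Among the 8 markers of the labelled line, GFAP, NES, SOX2 and FABP7, which mark glial and neural progenitor cells, were lower after LLY-283 (log2 fold changes of -0.25, -0.17, -0.27 and -0.21; adjusted p of 8.20e-04, 7.31e-04, 3.49e-04 and 5.15e-04, limma), and CD44, a mesenchymal marker, was higher (0.11, adjusted p = 0.0168). The other 3 were not called, with log2 fold changes of -0.06 for VIM, also a mesenchymal marker, -0.08 for SOX9 and -0.43 for S100B (adjusted p of 0.195, 0.0905 and 0.0781). Over all genes tested, 8.61% were called higher and 17.6% lower. Whether these move with CCN2 for a shared reason was not tested.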
